A study of Homo sapiens with 14 samples.

Results

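A run of neighbouring genes on the long arm of human chromosome 14, bands q21 to q23, was followed in ovarian carcinoma cells that had become resistant to an inhibitor of the cell cycle kinase CDK2. The list names 54 genes that run from KLHDC2 and NEMF to PCNX4 and includes NID2, the gene of the basement membrane protein nidogen-2. A named array row was found for 52 of them, out of 18398 genes in all, and FBXO34 and ARID4A had none and were not analysed here. The list was drawn up because these genes tended to be higher in all 10 resistant arrays than in parental cells, so the members' values against parental cells are a description: no p is given for them, and counts past a threshold in those contrasts support nothing. Comparisons among the resistant arrays were not used to choose the genes and are tested.

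The cells were OVCAR-3, a long-established line from a human ovarian carcinoma. The parental group was 4 arrays of OVCAR-3 grown in medium with 0 µM of the inhibitor PHA-533533. The selected group was 5 arrays, 1 for each of the separately derived resistant sublines R1, R3, R5, R6 and R7, at passage 5 in 4 µM PHA-533533. The stable group was 5 arrays of the same sublines at passage 10 or later in 0 µM, so inhibitor and passage changed together and their parts cannot be told apart. All groups share the OVCAR-3 background, and each subline gave 1 array per condition. Nothing in the labels tells whether the 4 parental replicates came from different cultures, and p-values then measure the spread between arrays, which may be technical. Levels are the deposited log values, taken as log2 signal, and the number of arrays limits their precision.

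Chromosomes of carcinoma lines often gain or lose long stretches, and the genes of such a stretch then tend to shift a little and together. A change in the control of a single gene can move that gene alone. Copy number was not measured in these samples. Nidogen-2 links laminin to type IV collagen in basement membranes. Its neighbours have unrelated jobs, among them protein folding in the endoplasmic reticulum, ubiquitin and proteasome work, membrane traffic, centrosome and spindle function and the Hippo pathway, which restrains growth through YAP.

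The letters upstream of NID2 are shown beside those of the nearest members on either side. These genes lie close together, with only RTRAF and PTGDR measured between them, and differed in how far they lay from parental cells. The windows are the 250 bases before each start in RefSeq (GRCh38.p14), and capitals mark matches to the motifs searched. NID2 lies on the minus strand, chr14:52069060-52069309, and GNG2 (chr14:51825924-51826173, the outermost of its 5 listed starts) and PTGER2 (chr14:52314062-52314311) lie on the plus strand.
NID2: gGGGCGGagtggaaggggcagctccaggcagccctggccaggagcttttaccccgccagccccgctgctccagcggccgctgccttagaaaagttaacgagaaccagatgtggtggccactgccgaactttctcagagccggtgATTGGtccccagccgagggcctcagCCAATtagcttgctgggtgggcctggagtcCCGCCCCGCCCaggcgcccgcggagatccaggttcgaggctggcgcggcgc
GNG2: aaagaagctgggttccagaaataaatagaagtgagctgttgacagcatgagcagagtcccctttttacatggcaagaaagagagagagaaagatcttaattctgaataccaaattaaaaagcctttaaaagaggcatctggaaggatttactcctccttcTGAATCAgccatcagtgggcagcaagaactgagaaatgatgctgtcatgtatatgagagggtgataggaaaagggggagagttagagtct
PTGER2: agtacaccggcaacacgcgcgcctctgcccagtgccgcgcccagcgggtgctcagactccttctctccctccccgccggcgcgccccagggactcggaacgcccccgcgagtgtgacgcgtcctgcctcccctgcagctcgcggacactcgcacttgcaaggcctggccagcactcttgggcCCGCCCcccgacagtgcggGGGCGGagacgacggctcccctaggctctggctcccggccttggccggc
The NID2 window held 18 CpG pairs, 3 GGGCGG matches, of which one pair overlaps by a base, and 2 CCAAT matches. The PTGER2 window held 28 CpG pairs and 2 GGGCGG matches, and the GNG2 window held 0 CpG pairs and 1 TGANTCA match. Both strands were searched.

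Promoter windows were found for 46 of the 52 members, 62 windows in all, and they had a median of 20.5 CpG pairs against 11 over all 35116 windows of the same length. Those windows belong to 27305 genes, more than the 18398 measured here. They were not matched to the members in gene type or signal, so differences in these shares are not read as a trait of the run. GGGCGG stood in 62.9% of member windows and in 42.6% of all windows, and CCAAT in 22.6% and 32.0%. TATAAA was found in 1.61% of member windows and 10.7% of all, TGANTCA in 1.61% and 6.57%, GGAATG in 12.9% and 11.9%, and CACGTG in 4.84% and 6.34%. TTTCGCGC was in 0 member windows and in 0.439% of all, and the NRF1 core motif in 0 and in 1.03%. A match is a match of letters only.

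NID2 stood far above the rest of the run. Its level was 10.25, 9.84, 9.55 and 9.79 in parental replicates 1 to 4. For R1, R3, R5, R6 and R7, in that order, selected arrays measured 11.74, 11.25, 10.98, 11.53 and 11.95. Stable arrays measured 11.60, 12.32, 11.95, 10.79 and 11.05 in the same order. Every resistant array thus lay above every parental array, and 0.54 separated the lowest resistant from the highest parental value. The mean difference from parental cells was 1.64 (SE 0.19) in selected and 1.69 (SE 0.28) in stable cells, and over all 10 resistant arrays it was 1.66, a ratio of 3.16. By that mean NID2 ranked 1 of 18398 genes. Against the parental mean the smallest resistant ratio was 1.91, in stable R6, and the largest 5.52, in stable R3.

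The other members sat in a low band beneath it. The median over the other 51 members, as log2 signal minus the parental mean, averaged 0.26 ± 0.11 (SD, n = 5) for selected arrays and 0.17 ± 0.14 (SD, n = 5) for stable ones, and over parental arrays it ran from -0.14 to 0.15. NID2 exceeded this median by 1.37 ± 0.32 (SD, n = 5) across selected arrays and by 1.52 ± 0.59 (SD, n = 5) across stable ones. The excess was smallest in stable R6, at 0.87, and largest in stable R3, at 2.28. NID2 ranked 1 of 52 members in each of the 10 resistant arrays, and also in parental replicate 1, while it ranked 45, 48 and 35 in parental replicates 2, 3 and 4.

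**Figure D1:**
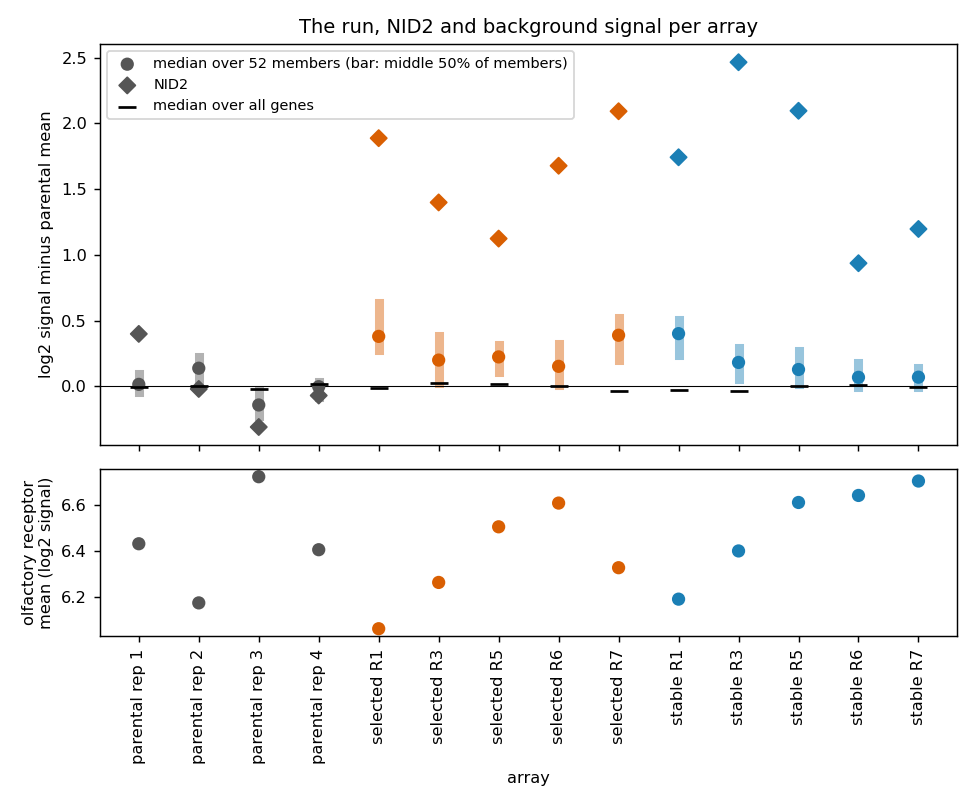
For each array the upper panel plots, as log2 signal minus the parental mean, the median over the 52 members (circle, with a bar over the middle 50% of members), NID2 (diamond) and the median over all 18398 genes (dash), and the lower panel plots the mean of 360 olfactory receptor genes as log2 signal. NID2 stands 0.94 to 2.46 above the parental mean in resistant arrays while the member median runs from 0.07 to 0.40.

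The run was higher in each resistant array, but by unequal amounts. Its median over all 52 members was 0.38, 0.20, 0.22, 0.15 and 0.39 in the selected arrays of R1, R3, R5, R6 and R7. Their stable arrays gave 0.40, 0.18, 0.13, 0.07 and 0.07. The parental arrays lay at 0.02, 0.14, -0.14 and -0.00 for replicates 1 to 4. Parental replicate 2 therefore lay above the stable arrays of R5, R6 and R7, and the resistant and parental arrays overlapped. The median over all genes stayed between -0.03 and 0.02 in every array.

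The height of the run moved with background signal, taken as the mean of 360 olfactory receptor genes, which most tissues do not express. Within each group the run was highest, or within 0.01 of the highest, in the array with the lowest background. Background was 6.18 in parental replicate 2 and 6.72 in replicate 3, the parental arrays where the run was highest and lowest. It was 6.06 in selected R1 and 6.61 in selected R6, and 6.19 in stable R1 against 6.70 in stable R7. Background averaged 6.43 ± 0.22 (SD, n = 4) for parental arrays, 6.35 ± 0.21 (SD, n = 5) for selected arrays and 6.51 ± 0.21 (SD, n = 5) for stable arrays. Its part in the height of the run was not tested beyond a covariate. Genes above the 40th percentile of mean signal, among them 44 members, shifted as well, though less. Over all such genes the median ran from -0.11 to 0.07 in parental and from -0.06 to 0.10 in resistant arrays, and over the 44 members from -0.16 to 0.17 and from 0.05 to 0.42. With background as a covariate the median difference over the members was 0.25 in selected and 0.22 in stable cells, against 0.26 and 0.17 without it.

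Gene by gene the run was broad but not complete. The mean difference was above 0 in both selected and stable cells for 42 of 52 members and below 0 in both for 3, PELI2, BMP4 and DACT1, with 7 of mixed sign, while 28.9% of all genes were above 0 in both. Selected and stable cells are set against the same 4 parental arrays. All 10 resistant arrays lay above the parental mean for 19 members, where 3.30% of all genes did so. At least 9 lay above it for 31 members, beside 1636 of all 18398 genes. For PELI2 the count of such arrays was 0. Only NID2 and FRMD6 had every resistant array above every parental array, a pattern that 0.413% of all genes showed, and for FRMD6 that gap was under 0.01 and was lost after median centring and after quantile normalization, while NID2 kept its gap under both. Taking the selected arrays alone, 18 members lay above all parental arrays (6.81% of all genes), and taking the stable arrays alone 3 did, FRMD6, NID2 and CGRRF1 (0.826% of all genes).

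**Figure D2:**
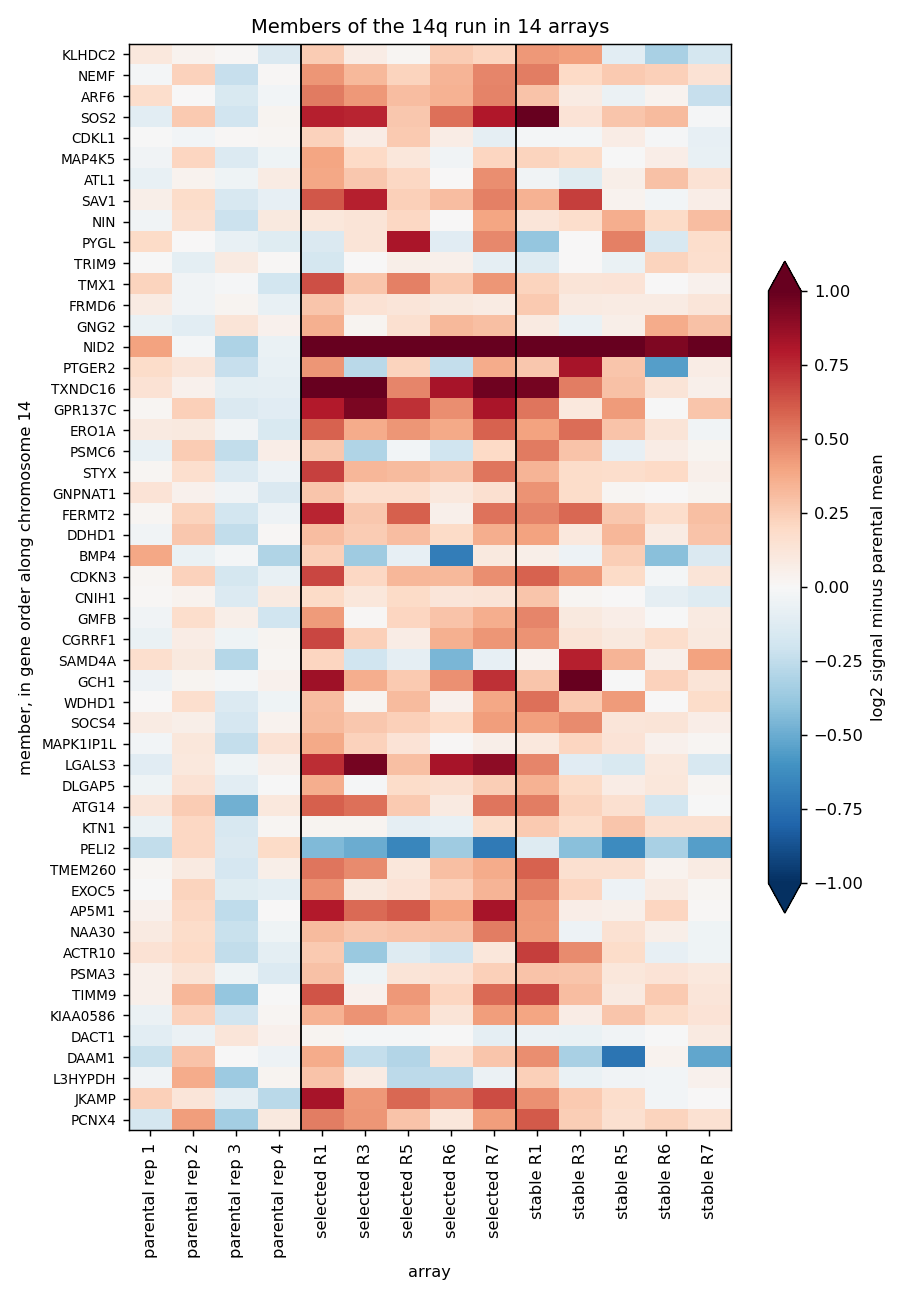
Rows are the 52 members in gene order, columns the 14 arrays, and colour is log2 signal minus the parental mean, cut off at -1 and 1. Most rows are red in most of the 10 resistant arrays, NID2 most strongly, whereas PELI2 is blue in all 10.

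In the limma fit over all genes 17 members were higher and 1, PELI2, was lower in selected than in parental cells at an adjusted threshold of 0.05, where 5.03% and 1.89% of all genes were. The list was chosen on this contrast, so the count restates that choice and nothing is read from it. The 17 differences ran from 0.29 to 1.64. In stable cells 0 members were called by limma, where 0.00% of all genes were called higher and 0.00544% lower, and 12 members had an unadjusted p under 0.05 (23.1%, beside 6.09% of all genes). The list was chosen on the contrast of stable with parental cells too, so nothing is read from that share. Without parental replicate 4 or without the selected array of R7, 9 members were called in selected cells.

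The nearest members on either side of NID2 lay closer to parental cells than NID2 did. FRMD6 and GNG2 were dim, near the parental background mean of 6.43, whereas NID2 averaged 9.86 in parental cells. How far low signal limited the differences of FRMD6 and GNG2 was not tested. FRMD6, a Hippo pathway scaffold, averaged 6.71 ± 0.07 (SD, n = 4) for parental cells, 6.86 ± 0.08 (SD, n = 5) for selected cells and 6.84 ± 0.08 (SD, n = 5) for stable cells. GNG2, a G protein gamma subunit, was 6.92 ± 0.11 (SD, n = 4), 7.15 ± 0.14 (SD, n = 5) and 7.07 ± 0.18 (SD, n = 5) in the same order, and its groups overlapped. PTGER2, a receptor for prostaglandin E2, was 7.83 ± 0.19 (SD, n = 4), 7.93 ± 0.34 (SD, n = 5) and 8.01 ± 0.50 (SD, n = 5). Its resistant arrays ran from 7.28 in stable R6 to 8.65 in stable R3, and so lay on both sides of the parental range of 7.60 to 8.01.

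TXNDC16, a thioredoxin-like protein of the endoplasmic reticulum, was next to NID2 in size over the whole run. Its level was 6.95, 6.85, 6.70 and 6.71 in parental replicates 1 to 4. Selected arrays of R1, R3, R5, R6 and R7 measured 8.01, 7.80, 7.29, 7.63 and 7.77, all above every parental array. In stable arrays it was 7.76, 7.31, 7.10, 6.93 and 6.85 for R1, R3, R5, R6 and R7, and the last pair lay within the parental range. The difference from parental was 0.90 (SE 0.13) in selected and 0.39 (SE 0.16) in stable cells. Its neighbour GPR137C, a membrane protein, came next, at 0.75 (SE 0.11) and 0.27 (SE 0.12). Parental arrays spanned 7.68 to 8.06, selected arrays 8.28 to 8.76 and stable arrays 7.82 to 8.35, and the stable arrays overlapped the parental ones.

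**Figure D3:**
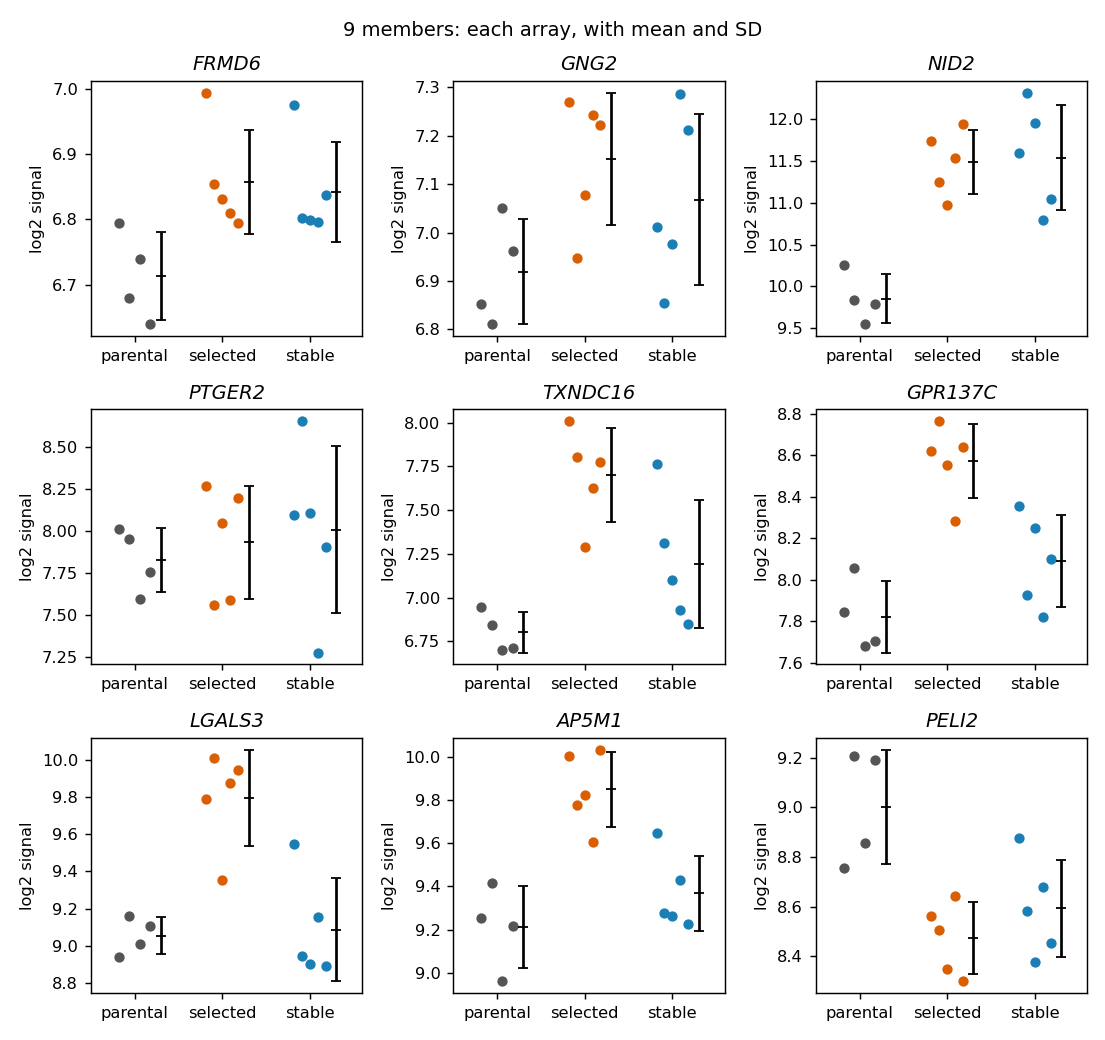
Each panel plots the log2 signal of 1 member in each of the 4 parental, 5 selected and 5 stable arrays (points) with the group mean and SD (bar); vertical scales differ between panels. NID2 is high in both resistant groups, LGALS3 and AP5M1 are high in selected arrays, and PELI2 is below all parental arrays in selected arrays.

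The low end of the run was made up of PELI2, BMP4 and DAAM1. PELI2, a ubiquitin ligase of Toll and interleukin-1 receptor signalling, was 8.76, 9.21, 8.86 and 9.19 in parental replicates 1 to 4. It ran from 8.30 to 8.64 in selected arrays, all below every parental array, and from 8.38 to 8.87 in stable arrays. Its differences were -0.53 (SE 0.11) and -0.41 (SE 0.13). BMP4, a growth factor of the TGF-beta family, differed by -0.16 (SE 0.18) and -0.06 (SE 0.15), and DAAM1, a formin of WNT signalling, by 0.05 (SE 0.15) and -0.21 (SE 0.21). At the ends of the run KLHDC2, a substrate receptor of a ubiquitin ligase, differed by 0.16 (SE 0.08) and 0.05 (SE 0.16), and PCNX4 by 0.35 (SE 0.14) and 0.28 (SE 0.15). Just outside them KLHDC1 differed by -0.03 in selected and 0.07 in stable cells, and DHRS7 by 0.94 and 0.11.

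By role, the values are again a description of the contrasts the list was chosen on. The 4 members of protein folding and quality control in the endoplasmic reticulum had a median difference from parental cells of 0.53 in selected and 0.22 in stable cells. Beside TXNDC16 they were ERO1A, which reoxidises protein disulfide isomerase, at 0.47 and 0.27, JKAMP at 0.59 and 0.17 and TMX1 at 0.42 and 0.11. For the 5 genes of matrix, adhesion and Hippo signalling the medians were 0.49 and 0.22. Below NID2 the galectin LGALS3 was at 0.74 and 0.03, SAV1, a cofactor of the Hippo kinases, at 0.49 and 0.22 and FERMT2, which activates integrins, at 0.44 and 0.36. For 10 genes of GTPases, membrane traffic and motors the medians were 0.26 and 0.15. SOS2, an activator of RAS, was at 0.63 and 0.34, AP5M1, of the AP-5 adaptor complex, at 0.64 and 0.16, ARF6, a GTPase of the cell surface, at 0.42 and 0.02 and GMFB, a regulator of actin branching, at 0.26 and 0.15.

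For 7 cell cycle, replication and centrosome genes the median difference was 0.22 in both selected and stable cells. CDKN3, a phosphatase whose known substrates include CDK2, was at 0.40 and 0.27, STYX, a phosphatase-like protein without catalytic activity, at 0.43 and 0.19, the ciliary gene KIAA0586 at 0.34 and 0.22 and WDHD1, of the replication fork, at 0.22 and 0.28. For 7 metabolic and mitochondrial genes the medians were 0.28 and 0.14, with GCH1, which starts tetrahydrobiopterin synthesis, at 0.53 and 0.37 and the mitochondrial import chaperone TIMM9 at 0.38 and 0.29. For 8 ubiquitin and proteasome genes they were 0.16 and 0.17, with NEMF, of ribosome quality control, at 0.37 and 0.27 and SOCS4 at 0.29 and 0.24. The 7 signalling genes had the lowest medians, 0.10 and 0.08, and besides GPR137C they held MAP4K5, a kinase, at 0.18 and 0.08. Of the remaining 4 genes TMEM260 was at 0.36 and 0.20, the autophagy gene ATG14 at 0.41 and 0.14 and SAMD4A at -0.12 and 0.32.

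The selected and stable arrays pair each subline in the inhibitor with its later, inhibitor-free culture, and here tests apply. LGALS3 and AP5M1 were the 2 members higher in selected cells and 0 were lower, against 1.54% and 0.614% of all genes. A count of 2 in 52 is too small to be read as differing from those shares. LGALS3 was 9.79, 10.01, 9.35, 9.88 and 9.95 in selected and 9.55, 8.94, 8.90, 9.16 and 8.89 in stable arrays of R1, R3, R5, R6 and R7. It was higher with the inhibitor in 5 of 5 sublines, by 0.71 (SE 0.15, limma adjusted p = 0.0347), and selected R5 lay below stable R1. AP5M1 was 10.00, 9.78, 9.83, 9.61 and 10.03 in selected and 9.65, 9.28, 9.26, 9.43 and 9.23 in stable arrays, in the same order. It too was higher in 5 of 5 sublines, by 0.48 (SE 0.10, limma adjusted p = 0.0381). The stable arrays of both genes overlapped the parental ones, which ran from 8.94 to 9.16 for LGALS3 and from 8.96 to 9.42 for AP5M1.

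With subline as a block 7 members passed, where 3.61% of all genes were higher. To the first pair this added ARF6 at 0.40 (limma adjusted p = 0.0363 with the block), TMX1 at 0.32 (0.0417), TXNDC16 at 0.51 (0.0383), GPR137C at 0.48 (0.0299) and JKAMP at 0.42 (0.0308), each higher in selected cells in 5 of 5 sublines. In 5 of 5 sublines the selected array had less background signal than its stable partner, and with the block and background together 0 members passed by limma, as 0 of all genes did. The unblocked calls of LGALS3 and AP5M1 were both lost when both arrays of R7 were left out (0 members called), and single arrays left out gave 0 to 8: 0 without selected R1, R3 or R7 or stable R3, R5, R6 or R7, 1 without selected R5 and 8 without stable R1. Over the 20 alternatives LGALS3 passed in 9 and AP5M1 in 9, with adjusted p from 0.00895 to 0.717 and from 0.0123 to 0.745.

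NID2 did not pass between selected and stable cells. Its difference was -0.05 (SE 0.28, limma adjusted p = 0.955), with the selected array higher in 3 of 5 sublines. From selected to stable it was higher in R3, 11.25 and 12.32, and in R5, 10.98 and 11.95, and lower in R7, 11.95 and 11.05, and in R6, 11.53 and 10.79. The median difference over the 52 members was 0.10, beside 0.00 over all genes, and 38 members were above 0, as were 9364 of all 18398 genes. It was 0.04 after quantile normalization and 0.01 with background as a covariate. SAMD4A, a translational repressor, was at -0.44 and did not pass (limma adjusted p = 0.166).

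Differences between the 5 sublines were tested with limma's F statistic on the 10 resistant arrays, growth condition being a covariate. No member passed, 0 of 52 by limma, where 0.120% of all genes did, and 8 members had an unadjusted p under 0.05, which is 15.4% beside 15.8% of all genes. The NID2 means of R1, R3, R5, R6 and R7 lay 1.81, 1.93, 1.61, 1.31 and 1.64 above parental cells (SE 0.36 for each), and the test between them did not pass (limma adjusted p = 0.870). The member with the smallest p, singled out after its values were seen, was PYGL, a glycogen phosphorylase. Its subline means ran from -0.26 in R1 to 0.66 in R5 (limma adjusted p = 0.0565), and its 2 R5 arrays, 10.17 and 9.86, were the highest of all 14. SAV1 followed with means from 0.14 in R5 and R6 to 0.73 in R3 (limma adjusted p = 0.130).

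Along the chromosome the difference was spread over the whole run. In 4 consecutive blocks of 13 members the median difference of resistant from parental arrays was 0.17, 0.31, 0.21 and 0.22, beside -0.01 over all genes. A further 20 named genes lie in the same interval and are not on the list. Their median was 0.02, 0 of them were called in selected cells and 0 had all 10 resistant arrays above the parental mean. The list holds genes that tended to be higher in resistant arrays, so lower values among genes left off it follow from that choice. The contrast of members with these genes is therefore a description only. Of the 20, 13 lay at or below the 40th percentile of mean signal, as did 8 of the 52 members, and the medians of those 13 and 8 were 0.02 and 0.15. For the 7 brighter ones the median was -0.01, and for the 44 brighter members 0.24. RTRAF, an RNA-binding protein gene next to NID2, had the largest mean difference of these 20, at 0.30 in selected and 0.16 in stable cells. LINC01599 differed by -0.10 and 0.34, OTX2 by -0.16 and -0.04, and the pseudogene RPL13AP3 by -0.16 and -0.03.

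Beyond the ends the values fell off unequally. The median difference of resistant from parental arrays was 0.04 over the 30 measured genes before the run, 0.10 over the 30 after it and 0.02 over the other 455 genes of chromosome 14. Among genes above the 40th percentile of mean signal it was 0.10 for 15 genes before, 0.13 for 21 after and 0.24 for 44 members. Means were above 0 in both selected and stable cells for 60.0%, 81.0% and 84.1% of these, beside 33.5% of all such genes. In that share the brighter genes after the run lay near the members. All 10 resistant arrays lay above the parental mean for 3 of the 30 genes before and 4 of the 30 after, against 19 of 52 members. Over all genes the share was 3.30%, and the members were chosen for such values. In selected cells 2 and 6 of these flanking genes were called higher and 0 lower, beside 5.03% and 1.89% of all genes.

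**Figure D4:**
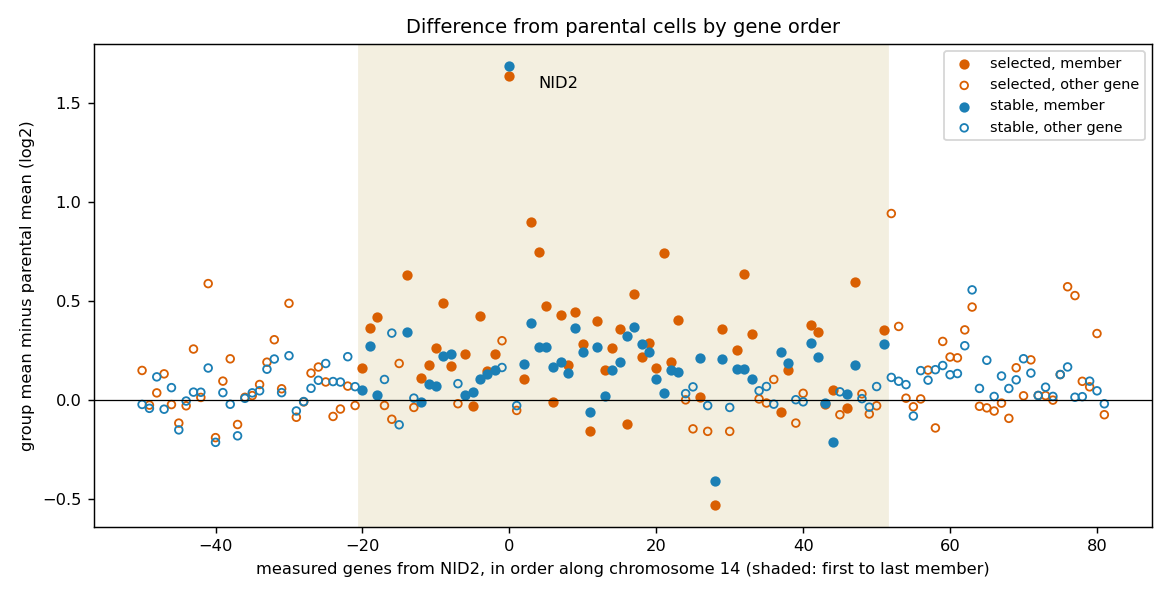
The horizontal axis counts measured genes from NID2 in their order along chromosome 14, and the vertical axis is the group mean minus the parental mean (log2) in selected and stable cells; filled points are members, open points other genes, and the shaded band runs from the first to the last member. NID2 stands at 1.64 and 1.69, and most members lie above 0.

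Several members are read from opposite strands with their starts close together, so such pairs share an upstream stretch. WDHD1 and SOCS4 have 136 bases between their RefSeq starts, TIMM9 and KIAA0586 187, L3HYPDH and JKAMP 108, and EXOC5 and AP5M1 65. The last 2 stretches are shown because the paired genes differed in their values (plus strand, GRCh38.p14, chr14:59484409-59484516 and chr14:57268906-57268970, with motif matches in capitals).
L3HYPDH-JKAMP: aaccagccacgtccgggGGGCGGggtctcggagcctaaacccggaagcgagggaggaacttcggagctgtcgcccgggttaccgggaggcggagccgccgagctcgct
EXOC5-AP5M1: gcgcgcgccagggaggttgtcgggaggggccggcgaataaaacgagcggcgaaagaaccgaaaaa
L3HYPDH, which dehydrates a hydroxyproline, differed from parental cells by -0.04 in selected and 0.03 in stable cells, while JKAMP differed by 0.59 and 0.17. EXOC5, a subunit of the exocyst, differed by 0.25 and 0.15 and AP5M1 by 0.64 and 0.16. In selected cells the members of the other pairs lay closer together. MAP4K5 and ATL1, a further pair with 512 bases between the starts, differed by 0.18 and 0.26 in selected and by 0.08 and 0.07 in stable cells. WDHD1 and SOCS4 differed by 0.22 and 0.29 in selected and by 0.28 and 0.24 in stable cells, and TIMM9 and KIAA0586 by 0.38 and 0.34 and by 0.29 and 0.22. The differences within pairs were not tested.

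NID2 was also set beside other genes of the basement membrane and its receptors, a list of 36 of which 33 were measured. In selected against parental cells 3 were higher and 0 lower by limma, beside 5.03% and 1.89% of all genes. These were the laminin chain LAMA1 at 0.69 (adjusted p = 0.00689), the integrin chain ITGA6 at 0.50 (adjusted p = 0.0114) and FRAS1 at 0.47 (adjusted p = 0.00919). In stable cells these 3 genes were at -0.06, 0.43 and 0.14 and did not pass. The integrin chain ITGA3, singled out after its values were seen, had the largest mean resistant difference of the list, 0.62, with all 10 resistant arrays above the parental mean. It was at 0.48 (SE 0.17, limma adjusted p = 0.114) in selected and 0.77 (SE 0.29, limma adjusted p = 0.685) in stable cells and did not pass. The other nidogen, NID1, differed by -0.01 in selected and 0.06 in stable cells, the collagen genes COL4A1 and COL4A2 by -0.11 and -0.11 in selected cells, and LAMC1 by 0.22, and none of these passed. The median over the 33 genes was 0.00 in selected and -0.01 in stable cells. By limma 0 of the list were called in stable against parental cells and 0 in selected against stable cells, with 3 and 6 at an unadjusted p under 0.05 (9.09% and 18.2%, beside 6.09% and 15.3% of all genes).

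As a check of the cell type, the mean of 10 genes of serous ovarian carcinoma and epithelium, among them PAX8, EPCAM and KRT8, ran from 11.33 to 11.79 over the 14 arrays, and 0 of the 10 were called by limma in any comparison. That mean covers unequal members. MUC16, the CA125 antigen gene, differed from parental cells by -0.88 in selected and -0.67 in stable cells (limma adjusted p = 0.0591 and 0.842). MSLN was at -0.56 and -0.17 (0.0629 and 0.999) in the same order. KRT19 averaged 11.29 ± 0.45 (SD, n = 4) for parental cells, 11.41 ± 0.58 (SD, n = 5) for selected cells and 10.29 ± 1.29 (SD, n = 5) for stable cells (limma adjusted p against parental cells 0.881 and 0.898). Means ran from 6.85 to 7.20 for 7 fibroblast markers, from 6.11 to 6.35 for 4 leukocyte markers and from 6.76 to 7.03 for 4 endothelial markers. Unequal members stand behind these means too. In parental cells COL1A1 averaged 9.14 and LUM 4.90 among fibroblast markers, and CD14 7.80 and PTPRC 5.35 among leukocyte markers. None of the fibroblast, leukocyte and endothelial markers was called in selected or stable against parental cells. The 3 proliferation markers MKI67, TOP2A and CCNB1 were not called either.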

How the data were processed

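RNA from 14 cell samples was labelled for Affymetrix whole-transcript arrays, per the labels' protocols. The deposited values are on a log2 scale: base 2 was inferred from their range, 4.34 to 14.9. How the authors corrected, normalized and summarised the signal is not stated in the sources used here. Of 32295 rows, 19148 name 1 gene in the platform annotation, 1376 name several and 11771 are not named here. RefSeq (GRCh38.p14) supplied current symbols, by gene ID, for 19118 rows, and the gene order. Each gene was represented by its brightest row on average, which left 18398 genes, and 3 members had more than 1 row.

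Linear models were fitted with limma 3.58.1 under R 4.3.3 on the arrays compared (eBayes, two-sided, Benjamini-Hochberg over all genes, threshold 0.05), and were checked on simulated data. The members and gene lists were chosen with earlier results of these data known. Values were given for NID2, 2 members on each side, both ends, the 3 largest and 3 smallest mean differences, members that passed a test or had an outlying array, up to 4 members per role and interval genes by size of difference.

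Selected and stable arrays of 1 subline are the same cell line and so are paired by the labels. Their deviations from the group means correlated at 0.636 (R1), 0.0497 (R3), 0.371 (R5), 0.546 (R6) and -0.468 (R7). Selected R1 and R6 correlated most with their own stable partners. The others correlated most with a different subline: selected R3 with stable R5 (0.118), selected R5 with stable R7 (0.637) and selected R7 with stable R1 (0.397). For R3, R5 and R7 the pairing thus rests on the labels, which limits the block fit and the test between sublines. Figures were drawn with matplotlib 3.10.9.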

Additional observations from a re-analysis of the deposited data

Results flagged for a closer look

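In 7 of 162 sets of arrays (a member's or summary's values within 1 group), fewer than the 1 in 20 that chance flags, 1 array lay far from the others. Stable R1 was the highest stable array for FRMD6 (6.98, others 6.80 to 6.84), GMFB (11.64, others 11.15 to 11.25), CGRRF1 (6.86, others 6.51 to 6.59), TMEM260 (9.30, others 8.75 to 8.88) and PCNX4 (9.59, others 9.13 to 9.22). Background signal was lowest in that stable array, at 6.19, and its part in these values was not tested. Stable R3 was the highest stable array for GCH1 (9.08, others 7.86 to 8.14). Selected R7 was the highest selected array for NAA30 (9.39, others 9.14 to 9.19).

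The difference from parental cells was larger in selected than in stable cells for LGALS3, by 0.71, and for AP5M1, by 0.48, as tested by limma between selected and stable arrays.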

How the results depend on the processing

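NID2 kept its sign against parental cells in all alternatives run, from 1.52 to 1.77 in selected and from 1.49 to 1.87 in stable cells with single arrays left out. Between selected and stable cells its difference ran from -0.24 to 0.14 in those settings and so turned sign. The median difference over members then ran from 0.23 to 0.31, from 0.12 to 0.23 and from 0.06 to 0.15 in the 3 comparisons. Members called with single arrays left out numbered 9 to 19 in selected and 0 in stable against parental cells, 0 to 8 in selected against stable cells and 0 to 3 between sublines, and members above all parental arrays 2 to 10. Without both arrays of R7 these counts were 9, 0, 0, 1 and 5. In stable against parental cells 1 member was called in one fit of 14 arrays and 3 with background as a covariate. In selected against stable cells 6 were called after quantile normalization, 1 after median centring, 4 above the 40th percentile, 4 in one fit of 14 arrays, 7 with the replicate block and 0 with block and background, a setting added after seeing the data. NID2 was at -0.05 with the block too. Between sublines 1 was called with trended and robust variance and 1 in one fit of 14 arrays. Members above all parental arrays numbered 1 after median centring, 1 above the 40th percentile (FRMD6 was not among the genes kept) and 18 with selected arrays alone. Small differences of selected from stable cells that turned sign were PCNX4 (-0.0081 after quantile normalization, -0.046 with background, -0.077 with block and background), FRMD6 (-0.018 centred, -0.030 with background), KLHDC2 (-0.0097 with background), DAAM1 (-0.063 with block and background) and, with single arrays left out, FRMD6 (-0.019 to 0.049), PTGER2 (-0.26 to 0.087) and BMP4 (-0.20 to 0.037). Apart from the lost calls given, the cause was not tested.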

Other observations

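Among the 30 genes after the run HIF1A, the oxygen-regulated transcription factor gene, was the 1 gene with every resistant array above every parental array. Over all genes 0.413% showed that pattern, and HIF1A was singled out after its values were seen. It differed from parental cells by 0.35 in selected and 0.27 in stable cells. SNAPC1, next to it, differed by 0.47 and 0.56, with all 10 resistant arrays above the parental mean, as for 3.30% of all genes.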
